A study of Homo sapiens with 18 samples.

Results

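Of 40266 gene symbols measured in the human PDAC cell line Panc89, 2185 lay on one side of the parental cells in every library of its single-cell clones, with all 6 clone libraries above all 3 parental libraries for 1230 genes and below them for 955. These genes were chosen on log2(TPM + 1) values, in which TPM gives the transcripts of a gene as a length-scaled share of the RNA in a library. The contrast behind every fold change is the mean of the Holoclone and Paraclone means minus the parental mean. Among the 16093 genes that reached 1 TPM in at least 3 of the 18 libraries of the study, 1826 were members, 1095 of them higher (6.8%) and 731 lower (4.54%) in the clones. The other 359 members did not pass this filter, and 151 of all members were separated by a gap of less than 0.01 on the log2 scale.

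Panc89 was derived from a lymph node metastasis of PDAC and served as the epithelial model of the study, beside the mesenchymal-like line Panc1. All groups used here were untreated cells in culture, with parental, Holoclone and Paraclone cells of each line in 3 replicates that came from different cell passages. Each Panc89 clone line is a single clone grown from 1 cell, so its 3 libraries measure the spread of that clone and not of clones in general. Accordingly, what belongs to cloning and expansion as such and what belongs to the individual founder cells cannot be told apart.

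Epithelial cells plated singly form compact holoclones, which are rich in self-renewing cells, or loose and scattered paraclones with little capacity for renewal, and in tumor lines the former are used as a cancer stem cell fraction. A parental line is a mixture of such cells. A level in bulk RNA does not distinguish fewer cells with the transcript from less transcript per cell.

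Between 13360 and 14199 genes per Panc89 library reached 1 TPM, and between 5.62% and 8.79% of its TPM came from genes of the mitochondrial genome. Replicates correlated across genes, which are not independent, with r of 0.985 to 0.992 in parental, 0.962 to 0.989 in Holoclone and 0.954 to 0.986 in Paraclone cells. Holoclone replicate 1 and Paraclone replicate 2 had the lowest mean r within their clone, at 0.970 and 0.962, and limma called 3121 genes without the former and 3139 without the latter, compared to 2675 with all libraries. All 10 duct carcinoma markers examined were above 1 TPM in every library, but 2 were called lower and 0 higher by limma in the clones (3 and 1 at an unadjusted p under 0.05). These were *MUC1*, a membrane mucin, with a mean of 76.1 TPM in parental, 5.02 TPM in Holoclone and 67.6 TPM in Paraclone cells, and *CLDN4*, a tight junction claudin, with 322 TPM, 121 TPM and 299 TPM. In contrast, 8 of 10 fibroblast and all 10 acinar and endocrine markers stayed under 1 TPM in every parental library, and *PTPRC*, the pan-leukocyte marker, averaged 0.482 TPM or less in each group. The fibroblast marker *COL1A1* averaged 23.75 TPM in parental, 15.38 TPM in Holoclone and 24.9 TPM in Paraclone cells.

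With limma, 1561 of the 16093 genes (9.7%) were called higher and 1114 (6.92%) lower in the clones at an adjusted p under 0.05. Of the members, 779 of 1095 were called higher and 572 of 731 lower, counts that are not independent of the rule because both used the same 9 libraries. Upper quartile scaling turned the split of calls to 1286 higher and 1410 lower, so the share of calls that were higher went from 58.4% to 47.7%, and the members then numbered 822 higher and 1029 lower. Lower members had changed by more: their median log2 fold change was −0.78 and 77 of them were over 2 in size, compared to 0.55 and 14 for higher members. The median of all genes tested was 0.03. At the edge of the rule, *DSTYK* was a member by a gap of 6.62e-05 with a log2 fold change of 0.17, and *RHOBTB2* was left out with a gap of −0.000505 and a log2 fold change of −0.64.

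The 10 highest of the members that were called in the contrast and in each clone, and whose mean reached 10 TPM in both clones, changed by 1.89 to 3.29 on the log2 scale. *SFTA1P*, a lncRNA gene at chr10:10784437-10795047 (GRCh38, GENCODE 44), was at 2.74, 3.35 and 2.35 TPM in the parental, 27.8, 31.4 and 33.5 in the Holoclone and 42.6, 44.1 and 40.5 in the Paraclone libraries. Its log2 fold change was 3.29 ± 0.11 (SE, limma adjusted p = 2.68e-11), and the replicates of each group stayed within a narrow range. *PTHLH*, which encodes the secreted parathyroid hormone-related protein, was at 2.49, 5.51 and 2.73 TPM in the parental, 26.8, 17.9 and 17 in the Holoclone and 31.9, 14.9 and 24.3 in the Paraclone libraries. It changed by 2.35 ± 0.27 (SE, limma adjusted p = 2.18e-05), with every clone library above the highest parental library. *ALDH1A3*, an enzyme of retinoic acid synthesis, was at 58.8, 102 and 62 TPM in the parental, 341, 335 and 233 in the Holoclone and 422, 159 and 275 in the Paraclone libraries, a change of 1.95 ± 0.25 (SE, limma adjusted p = 7.93e-05).

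*CEACAM5*, which encodes the carcinoembryonic antigen, was at 5.22, 5.85 and 8.52 TPM in the parental, 29.9, 40.02 and 31.1 in the Holoclone and 280.4, 15.2 and 178 in the Paraclone libraries. The second Paraclone library was far below the other two, and the change was 2.94 ± 0.58 (SE, limma adjusted p = 0.00245), which in a fit of the Panc89 libraries alone had an adjusted p of 0.0548 in limma. *CEACAM6*, a close relative with which it could share reads, was at 17.5, 30.4 and 20.7 TPM in the parental, 82, 54.3 and 37.1 in the Holoclone and 817, 128 and 487 in the Paraclone libraries, and likewise lowest in the second of the Paraclone libraries. *OSCAR*, a collagen receptor first described on osteoclasts, was at 2.83, 3.25 and 2.71 TPM in the parental, 6.05, 58.6 and 98.8 in the Holoclone and 50.9, 4.84 and 37.7 in the Paraclone libraries. Here the first Holoclone and the second Paraclone library were only slightly above parental cells, and the change of 2.84 ± 0.74 (SE, limma adjusted p = 0.0153) lost its call in a fit of the Panc89 libraries alone and without parental replicate 1 or 3.

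*LETM2*, a relative of a mitochondrial inner membrane protein, was at 6.85, 12.9 and 8.66 TPM in the parental, 33.2, 42.9 and 41.3 in the Holoclone and 62.5, 57.9 and 60.5 in the Paraclone libraries, and changed by 2.28 ± 0.15 (SE, limma adjusted p = 6.7e-08). *ANTXR2*, a receptor for basement membrane components, changed by 2.00 ± 0.23 (SE, limma adjusted p = 2.84e-05), *SCEL*, a precursor of the cornified envelope, by 1.95 ± 0.21 (SE, limma adjusted p = 1.21e-05), and *KRBOX1*, a KRAB domain gene, by 1.91 ± 0.17 (SE, limma adjusted p = 2.02e-06). *UNC13D*, which primes vesicles for secretion, was at 30.9, 61.1 and 31.7 TPM in the parental, 89.7, 98.6 and 119 in the Holoclone and 302, 154 and 211 in the Paraclone libraries, with the Paraclone libraries above all others. *KRBOX1* had the opposite order, at 4.63, 5.2 and 4.78 TPM in the parental, 44, 31.1 and 29 in the Holoclone and 9.7, 19.4 and 11.3 in the Paraclone libraries.

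Losses among the lower members were deeper, and several genes were near 0 in both clones. *FZD10*, a receptor for WNT ligands at chr12:130162459-130165740, was at 43.4, 41.5 and 39.5 TPM in the parental, 0.576, 0.522 and 0.786 in the Holoclone and 0, 0.0395 and 0 in the Paraclone libraries. Its log2 fold change was −5.05 ± 0.09 (SE, limma adjusted p = 6.3e-15). The fit pools the spread over both lines, and *FZD10* was at 0 in all Panc1 libraries, which can lower this SE. Under alternative settings of the fit its limma adjusted p reached 5.52e-07. *CD70*, the TNF family ligand of CD27, was at 93.1, 119.9 and 98.1 TPM in the parental, 5.62, 2.24 and 1.31 in the Holoclone and 5.64, 8.45 and 4.35 in the Paraclone libraries, which gave −4.36 ± 0.28 (SE, limma adjusted p = 4.28e-08). For both genes every clone library was far below the lowest parental library.

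*PECAM1*, an adhesion molecule best known from endothelium, was at 64.7, 53.1 and 62.5 TPM in the parental, 1.25, 0.752 and 0.565 in the Holoclone and 1.92, 6.9 and 4.8 in the Paraclone libraries, and changed by −4.31 ± 0.22 (SE, limma adjusted p = 4.43e-09). *ALPG*, an alkaline phosphatase of germ cells, was at 63.7, 73 and 60.9 TPM in the parental, 1.38, 0.374 and 0.339 in the Holoclone and 4.54, 3.87 and 5.46 in the Paraclone libraries, with −4.46 ± 0.25 (SE, limma adjusted p = 9.89e-09), although reads of its near-identical relatives can be divided differently between the genes. *DAPK1*, a death-associated kinase, was at 33.4, 23 and 32.1 TPM in the parental, 0.292, 0.0763 and 0.158 in the Holoclone and 2.93, 2.61 and 2.9 in the Paraclone libraries, with −3.83 ± 0.12 (SE, limma adjusted p = 2.68e-11). *ATP6V1B1*, a subunit of the vesicular proton pump, was at 62.2, 36 and 56.2 TPM in the parental, 0.36, 0.116 and 0.209 in the Holoclone and 6.99, 7.79 and 11.3 in the Paraclone libraries. For all 4 genes the Holoclone libraries were the lowest.

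*H19*, the imprinted lncRNA beside *IGF2*, showed how unequal both clones could be within the rule. It was at 3545, 5095 and 4357 TPM in the parental, 2471, 2075 and 2063 in the Holoclone and 10.2, 23.2 and 13.1 in the Paraclone libraries. Holoclone cells kept a large part of the parental level with a change of −0.96, whereas Paraclone cells had lost nearly all with −8.10, and the clones differed with a limma adjusted p of 1.6e-11. *CP*, which encodes the copper carrier ceruloplasmin, was at 55.2, 13.1 and 64.8 TPM in the parental, 1.56, 1.22 and 1.41 in the Holoclone and 0.636, 1.87 and 3.14 in the Paraclone libraries, and *MUC5B*, a gel-forming mucin, at 37.9, 33.8 and 40.2 TPM in the parental, 0.224, 0.275 and 0.552 in the Holoclone and 2.38, 3.82 and 7.16 in the Paraclone libraries. Parental replicate 2 was the lowest parental library for *CP* by a wide margin, but still above all clone libraries.

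**Figure D1:**
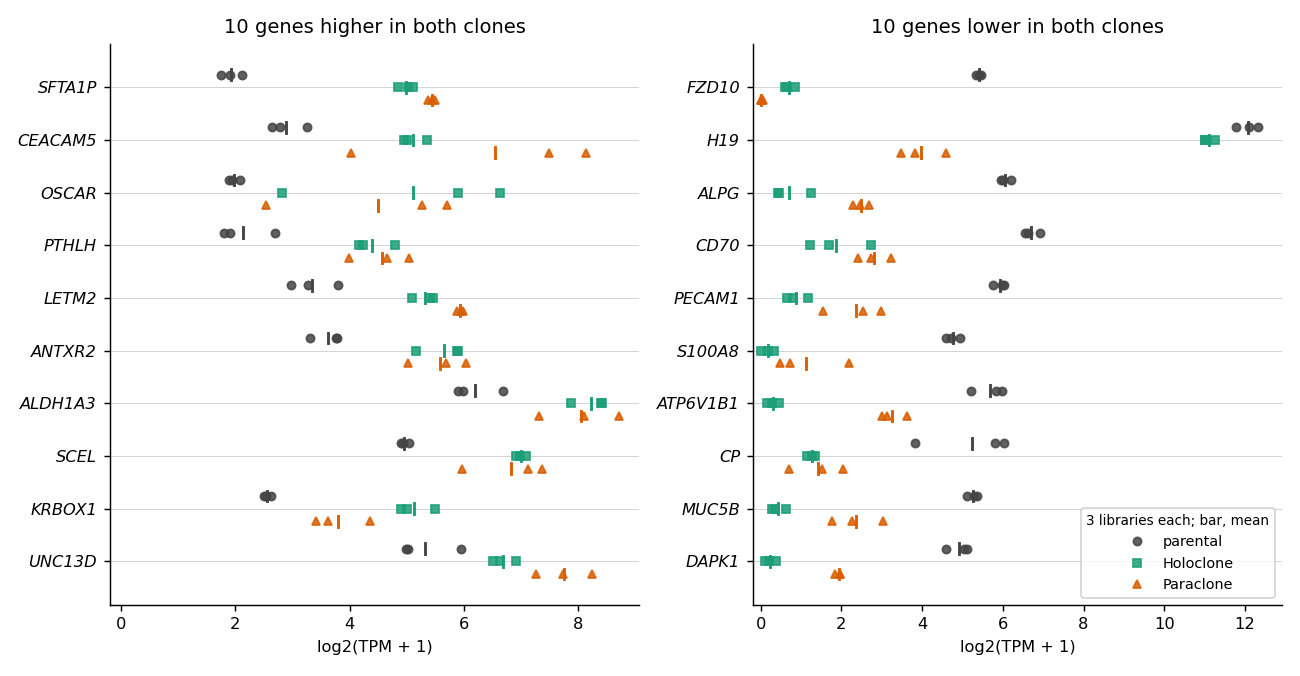
Levels of the 10 highest and 10 lowest genes named by size in the 9 Panc89 libraries, on the log2(TPM + 1) scale, with a point for each library and a bar for the mean of 3. All clone points lie right of the parental points in the left panel and left of them in the right panel, and *H19* falls by 0.96 in Holoclone but by 8.10 in Paraclone cells.

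Not every called gene was shared by the clones. Of the 2675 genes called, 782 higher and 542 lower ones were no members. *KRT81*, a hair-type keratin chosen here after its values were seen, was at 547, 817 and 547 TPM in the parental, 0.155, 0.28 and 0.0595 in the Holoclone and 1149, 700.5 and 1087 in the Paraclone libraries. It was called lower in the mean contrast, −4.23 ± 0.22 (SE, limma adjusted p = 4.55e-09), although only Holoclone cells had lost it, and its reads can be shared with similar keratin genes. Between Holoclone and Paraclone cells 35.7% of all genes tested were called different, compared to 265 of the 1095 higher (24.2%) and 223 of the 731 lower members (30.5%). The rule leaves out genes whose clones lie on opposite sides of parental cells, so the lower shares among members are not a result about them. In both clones, each taken alone, 390 higher and 386 lower members were also called against the same parental libraries, which the rule used too. Over all 16093 genes tested, 2595 were called higher and 1386 lower in Holoclone cells, and 1508 and 1612 in Paraclone cells.

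**Figure D2:**
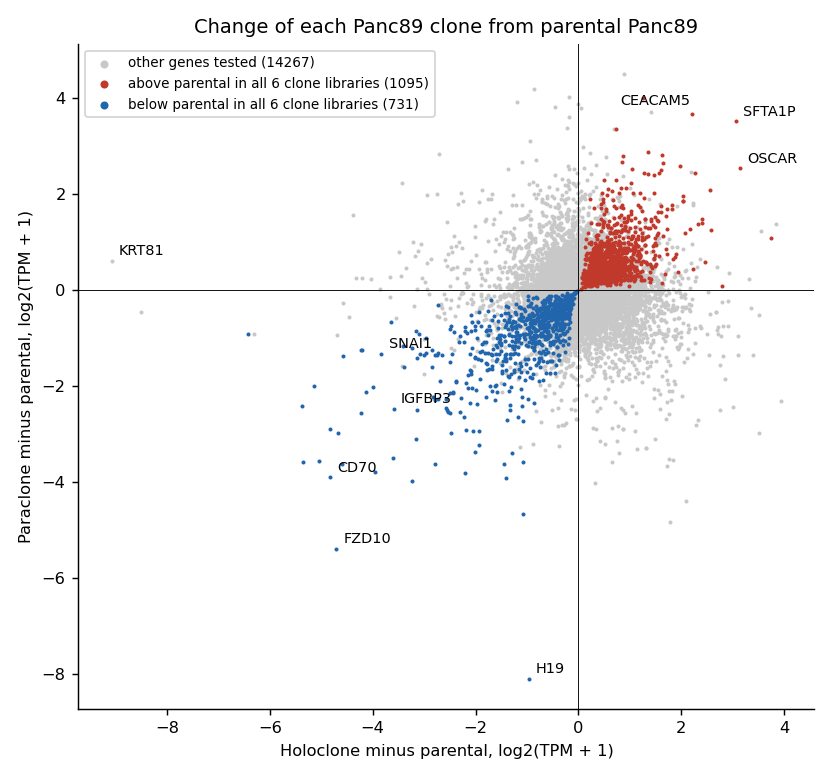
Change of Holoclone (horizontal) and Paraclone cells (vertical) from parental Panc89, as differences of mean log2(TPM + 1), with 1 point for each of 16093 genes. Members, in red and blue, fill the quadrants where both clones changed the same way, which the rule fixes, and the lower members reach farther from 0 than the higher ones.

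Interferon-stimulated genes, which are switched on together by STAT and IRF factors that bind the interferon response element of their promoters, were below the parental mean in the clones for most genes of the list. Of 42 such genes tested, limma called 0 higher and 11 lower (26.2%), compared to 9.7% and 6.92% over all genes. At an unadjusted p under 0.05 the counts were 1 and 25. Of the 42 genes 39 were below 0, and the median log2 fold change was −0.84. *XAF1*, a proapoptotic interferon target, was the only one of the 11 with no overlap between clone and parental libraries. It was at 89.8, 25.1 and 75.1 TPM in the parental, 2.36, 3.36 and 13.9 in the Holoclone and 1.28, 4.17 and 2.88 in the Paraclone libraries, with −3.60 ± 0.43 (SE, limma adjusted p = 3.58e-05). *IFIT1*, which binds foreign RNA, was at 253, 139.6 and 262 TPM in the parental, 35, 78.8 and 144 in the Holoclone and 17.7, 147 and 58.1 in the Paraclone libraries, so that the third Holoclone and the second Paraclone library reached the level of parental replicate 2, and the change of −1.72 ± 0.50 (SE, limma adjusted p = 0.0273) lost its call under 4 of 15 alternatives. *MX2*, an antiviral GTPase, was at 134, 40.9 and 113 TPM in the parental, 8.96, 27.6 and 102 in the Holoclone and 6.79, 40.4 and 22.6 in the Paraclone libraries, with −1.81 ± 0.59 (SE, limma adjusted p = 0.0467). *ISG20*, an antiviral exonuclease of the same list, was a member in the opposite direction with 0.73, but was not called.

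The level of these genes varied widely within each group. Their median deviation from the parental mean was 0.33, −0.60 and 0.26 in the parental libraries, −1.47, −0.91 and −0.06 in the Holoclone libraries and −1.41, −0.02 and −0.54 in the Paraclone libraries. Parental replicate 2 was thus lower than 3 of the 6 clone libraries, so that the groups overlapped. Without it 18 of the genes were called lower, but without parental replicate 1 or 3 only 2 were. Without Holoclone replicate 3 the count was 21 and without Paraclone replicate 2 it was 23, whereas without the other clone libraries it lay between 5 and 7.

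Of the interferon-stimulated genes, 33 had a RefSeq promoter, taken here as the 250 bases before the gene start. The interferon response element, GAAANNGAAA on either strand, was in 19 of these (57.6%) and in 2.35% of the 11821 promoters matched to tested genes. The list groups genes by a response that works through this element, so its share there is not a result about the clones. Among the genes of the list called lower, the element was in 7 of the 9 promoters (77.8%), and 4 of them are shown as examples, chosen after their values were seen. The capitals mark the element, which reads TTTCNNTTTC where it lies on the other strand, and coordinates are on GRCh38.p14.
IFIT1 (chr10:89392500-89392549, plus strand): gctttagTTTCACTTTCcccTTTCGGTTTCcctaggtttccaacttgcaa
IFIT3 (chr10:89327855-89327904, plus strand): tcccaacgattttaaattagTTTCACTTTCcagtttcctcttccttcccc
IFI6 (chr1:27672256-27672305, minus strand): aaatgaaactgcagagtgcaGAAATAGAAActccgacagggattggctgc
EPSTI1 (chr13:42992262-42992311, minus strand): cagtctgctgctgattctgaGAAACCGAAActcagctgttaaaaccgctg
*EPSTI1*, the last of these, was at 14.7, 6.12 and 10.9 TPM in the parental, 2.03, 3.43 and 8.29 in the Holoclone and 0.0176, 0.216 and 0.189 in the Paraclone libraries, with −2.21 ± 0.28 (SE, limma adjusted p = 6.19e-05). *IFI6*, an inhibitor of apoptosis, was at 1359, 551 and 1110 TPM in the parental, 47, 113 and 364 in the Holoclone and 568, 879 and 1390 in the Paraclone libraries, where the Paraclone libraries overlapped with parental cells and the Holoclone libraries did not, and it lost its call under 8 of 15 alternatives, as *IFIT3* did under 10. Among all lower members the element was in 12 of 505 promoters (2.38%), close to the 2.35% of all promoters matched. Among those with a log2 fold change over 1 in size, it was in 9 of 180 (5%). A match of letters does not show that the site is used.

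Of 34 inflammatory genes under NF-kB, the factor that drives cytokine and chemokine transcription, 9 were called lower (26.5%) and 2 higher (5.88%). The shares over all genes were 6.92% and 9.7%, and the list median was −0.49. Parental replicate 2 had a median deviation of −0.51, below the Paraclone libraries at −0.31, −0.28 and −0.22, so parental and Paraclone libraries overlapped. Among the 9, *C3* changed by −2.19 in Holoclone and 0.14 in Paraclone cells, and *IL6* by −3.86 and 0.02. The other genes called lower were below 0 in both clones. *TNFAIP2*, a TNF-induced gene, was at 480.2, 275 and 463 TPM in the parental, 216, 159.8 and 122 in the Holoclone and 140.1, 209 and 179 in the Paraclone libraries, which gave −1.23 ± 0.19 (SE, limma adjusted p = 0.000304). *IL32*, a proinflammatory cytokine, was at 62.3, 50.8 and 58.7 TPM in the parental, 9.7, 10.9 and 14.8 in the Holoclone and 39.8, 20.2 and 37.4 in the Paraclone libraries, with −1.53 ± 0.32 (SE, limma adjusted p = 0.00398). *CSF1*, the growth factor of macrophages, changed by −1.79 ± 0.30 (SE, limma adjusted p = 0.00067), and the chemokine gene *CXCL1* by −1.81 ± 0.44 (SE, limma adjusted p = 0.00927). Parental replicate 2 was again the lowest parental library of *CXCL1*, which was at 153, 24.8 and 126 TPM in the parental, 27.1, 16.1 and 14.4 in the Holoclone and 26.1, 30.6 and 20.5 in the Paraclone libraries, and without that library 16 genes of the list were called lower, compared to 5 without parental replicate 1 or 3. *IL1B* and *IL1A*, which encode interleukin-1, were the 2 genes called higher, with 1.49 and 0.92, and neither was called without parental replicate 3.

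Of 30 MAPK targets and immediate early genes, 4 were called higher and 4 lower (13.3% each), with a median of −0.03, so that the list as a whole lay close to all genes tested (9.7% and 6.92%). All 4 genes called higher were members, and the list also had 2 lower members. The 4 genes called lower are not named here, so the values below show only the higher side. *HBEGF*, a ligand of the EGF receptor, was at 48.7, 56.2 and 63.1 TPM in the parental, 69.6, 209 and 272 in the Holoclone and 259, 84.9 and 194 in the Paraclone libraries, with 1.51 ± 0.42 (SE, limma adjusted p = 0.0212). *FOSL1*, a subunit of the AP-1 transcription factor, was at 65.1, 75.1 and 57 TPM in the parental, 127, 175 and 215 in the Holoclone and 246, 118 and 144 in the Paraclone libraries, and changed by 1.32 ± 0.29 (SE, limma adjusted p = 0.00507). *PHLDA1* changed by 1.499 ± 0.24 (SE, limma adjusted p = 0.000497) and *TGFA*, another EGF receptor ligand, by 0.96 ± 0.29 (SE, limma adjusted p = 0.0344), although *TGFA* lost its call under 13 of 15 alternatives and *HBEGF* under 4. For each of these genes the first Holoclone and the second Paraclone library were the lowest of their clone.

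A loose form of the AP-1 motif, TGANTCA on either strand with any base at N, was in 13 of 113 promoters (11.5%) of higher members with a log2 fold change over 1. Among all promoters matched the share was 4.23%. Among all higher members the share was 5.67%, and among lower members with a change over 1 in size 5.56%. The motif was chosen with these values known, and no test was run. Its counts take in TGAATCA, as in *SERPINB5* below, beside TGACTCA and TGAGTCA, and were not split by the base at N. As examples, 4 of the 13 promoters are shown around the motif in capitals, on GRCh38.p14 from RefSeq.
SCEL (chr13:77535637-77535683, plus strand): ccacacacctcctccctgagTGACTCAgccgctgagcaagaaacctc
S100A2 (chr1:153565870-153565916, minus strand): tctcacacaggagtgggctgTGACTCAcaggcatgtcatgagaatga
CD68 (chr17:7579518-7579564, plus strand): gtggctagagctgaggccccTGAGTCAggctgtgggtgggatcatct
SERPINB5 (chr18:63476792-63476838, plus strand): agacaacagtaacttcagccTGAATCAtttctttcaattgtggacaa
*S100A2*, a calcium-binding protein of basal epithelium, was at 49.8, 116 and 54.2 TPM in the parental, 307, 163 and 139.9 in the Holoclone and 259, 284 and 290.4 in the Paraclone libraries, with 1.75 ± 0.28 (SE, limma adjusted p = 0.000446). *SERPINB5*, the protease inhibitor maspin, was at 17.2, 24 and 17.9 TPM in the parental, 54.3, 44.6 and 51.8 in the Holoclone and 37.9, 35.5 and 30.9 in the Paraclone libraries, with 1.06 ± 0.13 (SE, limma adjusted p = 4.85e-05). *CD68*, a lysosomal protein used as a macrophage marker, was at 8.31, 14.6 and 10.4 TPM in the parental, 21.7, 25.4 and 18.1 in the Holoclone and 63, 33.8 and 60.8 in the Paraclone libraries, with 1.53 ± 0.19 (SE, limma adjusted p = 5.52e-05), and rose more in Paraclone cells.

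The list of YAP and TEAD genes holds these transcriptional partners of the Hippo pathway together with their targets. It had the largest share of genes called higher among lists with at least 10 genes tested. Limma called 10 of its 20 genes higher (50%) and 1 lower, compared to 9.7% and 6.92% over all genes. Among the 10 were *YAP1*, *TEAD1* and *TEAD4*, which encode the factors themselves, so the 50% is not a share of targets alone. *YAP1* itself was at 83.4, 77 and 83.6 TPM in the parental, 142, 134 and 135 in the Holoclone and 107, 126 and 106 in the Paraclone libraries, with 0.61 ± 0.09 (SE, limma adjusted p = 0.000189), and its partner *TEAD1* changed by 0.55 ± 0.15 (SE, limma adjusted p = 0.0212), a call that was lost without any one of the parental replicates. *AXL*, a receptor tyrosine kinase, was at 4.96, 7.66 and 5.8 TPM in the parental, a mean of 10.1 TPM in the Holoclone and 40.5, 22.2 and 25 TPM in the Paraclone libraries, with 1.35 ± 0.19 (SE, limma adjusted p = 0.000156) and the larger part of it in Paraclone cells. *TGFB2* was the gene called lower, at 43.2, 33.9 and 36.8 TPM in the parental, 15.6, 27.9 and 24.2 in the Holoclone and 9.98, 18.3 and 11.7 in the Paraclone libraries. Of the 10 genes called higher, *AXL*, *YAP1* and *TEAD1* were members. Others differed between the clones, such as *AJUBA*, a junction and Hippo regulator, with 1.66 in Holoclone and 0.00 in Paraclone cells, and *NT5E*, an ectonucleotidase, with −0.33 and 1.90. The list median was 0.40 in Holoclone but 0.03 in Paraclone cells, and between 6 (without parental replicate 3) and 10 of its genes were called higher when single libraries were left out. Its median deviation from the parental mean was 0.05, −0.08 and 0.01 in the parental libraries. It was 0.82, 0.25 and −0.12 in the Holoclone and 0.18, −0.03 and 0.06 in the Paraclone libraries, so that the groups overlapped.

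Genes of the IGF system, whose binding proteins hold insulin-like growth factors outside the cell, changed in both directions, with 6 of 19 lower (31.6%) and 4 higher (21.1%). Over all genes the shares were 6.92% and 9.7%. Of the genes called lower, 5 encode binding proteins and the other was *H19*. *IGFBP3* was at 83, 40.2 and 87.5 TPM in the parental, 4.98, 4.32 and 4.51 in the Holoclone and 10.9, 11.7 and 10.8 in the Paraclone libraries, with −3.03 ± 0.24 (SE, limma adjusted p = 6.37e-07). *IGFBP5*, at 4.68, 5.26 and 4.16 TPM in the parental, 0.0212, 0 and 0.0042 in the Holoclone and 0.23, 0.225 and 0.389 in the Paraclone libraries, was close to 0 in all clone libraries. *IGFBP2* was at 13.1, 21.4 and 17.3 TPM in the parental, 6.64, 5.22 and 5.43 in the Holoclone and 0.125, 0.211 and 0.214 in the Paraclone libraries, with −2.67 ± 0.18 (SE, limma adjusted p = 5.76e-08), and *IGFBP4* changed by −1.37. In contrast *IGFBP6* rose, at 77, 109.5 and 81.4 TPM in the parental, 304, 199 and 142 in the Holoclone and 354, 340.1 and 394 in the Paraclone libraries, with 1.61 ± 0.18 (SE, limma adjusted p = 1.68e-05), and *IGF2BP2*, which binds mRNAs and is no secreted protein, rose by 0.75. *IGFBP7* was called lower with −1.53 but was no member, as it changed by 1.78 in Holoclone and by −4.85 in Paraclone cells. Under each alternative 6 genes of the list were called lower, and without parental replicate 3 only 2 were called higher.

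In the WNT pathway, in which secreted ligands act on Frizzled receptors, 7 of 37 genes were called lower (18.9%) and 4 higher (10.8%). Over all genes, also as the comparison for the Notch and TGF-beta lists below, the shares were 6.92% lower and 9.7% higher. Beside *FZD10*, the ligand gene *WNT11* was lost mainly from Holoclone cells, at 7.44, 8.92 and 10.04 TPM in the parental, 0.306, 0.0494 and 0.0606 in the Holoclone and 4.76, 3.56 and 4.29 in the Paraclone libraries, with −2.01 ± 0.21 (SE, limma adjusted p = 1.09e-05). *NKD1*, an inhibitor and target of the pathway, was at 1.39, 1.4 and 1.08 TPM in the parental, 0.372, 0.123 and 0.021 in the Holoclone and 0.0114, 0.0466 and 0.00375 in the Paraclone libraries, with −1.07 ± 0.12 (SE, limma adjusted p = 1.35e-05). The receptor gene *FZD8* rose, at 2.95, 3.67 and 3.12 TPM in the parental, 7.93, 6.09 and 5.69 in the Holoclone and 17.5, 10.3 and 12.4 in the Paraclone libraries, with 1.28 ± 0.17 (SE, limma adjusted p = 7.57e-05). *LEF1*, *WNT7A* and *WNT9A* were called higher without being members, and without parental replicate 1 or 3 the list had only 2 genes called higher. Of 23 Notch pathway genes 3 fell (13.0%) and 0 rose at this threshold in limma (6 and 2 at an unadjusted p under 0.05), among them the feedback inhibitor *NRARP*, at 110.3, 80.6 and 95.9 TPM in the parental, 62, 37.4 and 32.1 in the Holoclone and 26.8, 21.3 and 32.3 in the Paraclone libraries, with −1.48 ± 0.21 (SE, limma adjusted p = 0.000203). Of 35 genes of the TGF-beta pathway 5 were called lower (14.3%) and 6 higher (17.1%). *TGFBR2*, the type II receptor, was at 69.4, 70.1 and 61.9 TPM in the parental, 38.7, 36.1 and 30.4 in the Holoclone and 29.9, 59.97 and 39.5 in the Paraclone libraries, with −0.80 ± 0.16 (SE, limma adjusted p = 0.00282), *SMAD6*, an inhibitor, changed by −1.33, *SMAD2*, a signal transducer, by −0.60, and *LTBP3*, which stores the latent ligand, by 0.68, of which *LTBP3* lost its call under 4 of 15 alternatives.

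Basal and squamous genes, which mark the layer of epithelium that rests on the basement membrane and its keratinizing derivatives, had many calls in both directions, with 12 of 39 higher (30.8%) and 14 lower (35.9%). Over all genes these shares were 9.7% and 6.92%. Components that anchor cells to the basement membrane were among the higher ones. *ITGB4*, an integrin subunit of hemidesmosomes, was at 196, 320.0 and 214 TPM in the parental, 417, 494 and 484 in the Holoclone and 954, 435 and 809.6 in the Paraclone libraries, with 1.25 ± 0.27 (SE, limma adjusted p = 0.00463). *LAMB3*, a laminin chain of the basement membrane, changed by 0.94 ± 0.26 (SE, limma adjusted p = 0.0208), and *ITGA6*, the partner of *ITGB4*, by 0.78. Some calcium-binding, junction and protease genes were among the lower ones. These classes did not fall as a whole. The calcium-binding *S100A2*, given above, and the junction gene *DSG3*, which was no member, were called higher with 1.75 and 1.065. *S100A9*, which forms calprotectin with the *S100A8* product, was at 423, 333 and 377 TPM in the parental, 28.4, 19.4 and 15.3 in the Holoclone and 52.6, 107 and 109 in the Paraclone libraries, with −3.13 ± 0.21 (SE, limma adjusted p = 5.86e-08). *S100A8* was at 25.5, 23.3 and 29.9 TPM in the parental, 0.261, 0 and 0.131 in the Holoclone and 0.394, 3.59 and 0.649 in the Paraclone libraries, with −4.11 ± 0.26 (SE, limma adjusted p = 4.28e-08).

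*GJB6*, a connexin of gap junctions, was at 27.9, 22.9 and 23.1 TPM in the parental, 9.89, 11.1 and 12.6 in the Holoclone and 0, 0.015 and 0 in the Paraclone libraries, and thus lost from Paraclone cells and reduced in Holoclone cells, with −2.87 ± 0.16 (SE, limma adjusted p = 1.15e-08). *GJB2*, another connexin, changed by −1.38 ± 0.14 (SE, limma adjusted p = 9.56e-06). The kallikrein protease genes *KLK6*, *KLK7* and *KLK8* changed by −1.92, −0.82 and −1.09, of which *KLK6* was at 56.3, 106 and 64.4 TPM in the parental, 25.5, 15.9 and 10.8 in the Holoclone and 11.4, 41.8 and 18.7 in the Paraclone libraries. *SERPINB2*, an inhibitor of plasminogen activators, rose by 1.90.

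Classical and gut-type secretory genes were called higher in 6 (17.1%) and lower in 10 (28.6%) of 35 cases, compared to 9.7% and 6.92% over all genes. Beside *MUC5B*, the membrane mucin *MUC16* was at 14.5, 12.1 and 15 TPM in the parental, 1.53, 0.552 and 0.615 in the Holoclone and 4.46, 3.81 and 6.35 in the Paraclone libraries, with −2.18 ± 0.17 (SE, limma adjusted p = 3.17e-07). Of 40 epithelial genes 6 rose (15%) and 7 fell (17.5%), beside the same 9.7% and 6.92% over all genes. Junction genes were among the former, with *PKP3*, a desmosomal plakophilin, at 105, 114 and 106 TPM in the parental, 231, 199 and 189 in the Holoclone and 209.7, 178 and 197 in the Paraclone libraries and 0.88 ± 0.11 (SE, limma adjusted p = 3.78e-05), and *DSG2*, a desmosomal cadherin, changed by 0.74 ± 0.12 (SE, limma adjusted p = 0.000399). The tight junction genes *F11R* and *OCLN* changed by 0.54 and 0.51, but lost their calls under 12 and 11 of 15 alternatives. In contrast *CLDN4*, a tight junction gene given above, was called lower. The list had 5 higher members and 1 lower member, so the members named here do not represent the 7 genes that fell. *CDH1*, which encodes E-cadherin, was a member at 73.3, 77.9 and 74.7 TPM in the parental, 90.0, 88.7 and 107 in the Holoclone and 100.2, 94 and 99.8 in the Paraclone libraries, but was not called, with 0.35 ± 0.16 (SE, limma adjusted p = 0.169).

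Of 44 mesenchymal genes 9 were called higher (20.4%) and 6 lower (13.6%), compared to 9.7% and 6.92% over all genes. *SNAI1*, a repressor of E-cadherin, was at 25.5, 30.3 and 25.4 TPM in the parental, 0.935, 0.857 and 1.11 in the Holoclone and 9.95, 9.48 and 11.1 in the Paraclone libraries, with −2.58 ± 0.16 (SE, limma adjusted p = 2.46e-08). *LOX*, which crosslinks collagen, was at 27.2, 14 and 27.2 TPM in the parental, 1.8, 1.97 and 3.04 in the Holoclone and 2.69, 5.13 and 4 in the Paraclone libraries, with −2.53 ± 0.23 (SE, limma adjusted p = 2.02e-06). *COL6A2*, a collagen chain, changed by −1.70 ± 0.28 (SE, limma adjusted p = 0.000632). *SERPINE2*, a protease inhibitor, rose, with 1.08 ± 0.20 (SE, limma adjusted p = 0.00137). Of the 8 genes that the study followed as stem cell and EMT markers, *SOX2*, *OVOL2* and *L1CAM* were called lower and *ZEB2* higher, but none of these 4 was a member, and *OVOL2* and *ZEB2* lost their calls under 5 and 6 of 15 alternatives. *SOX2* changed by 0.32 in Holoclone and −4.03 in Paraclone cells, *OVOL2* by −1.44 and 0.47, *L1CAM* by −3.19 and 0.70, and *ZEB2* by −0.08 and 0.89. *NES*, *VIM* and *ZEB1* were not called, with −0.14, 0.21 and 0.61.

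Ribosomal protein genes were lower by small amounts, with 72 of 79 below 0 and a median of −0.19. Of these 79 genes 14 were called lower (17.7%) and 1 higher (1.27%), compared to 6.92% and 9.7% over all genes. *RPL7A* was at 4205, 4403 and 4416 TPM in the parental, 3649, 2792 and 2355 in the Holoclone and 2753, 2549 and 2925 in the Paraclone libraries, with −0.63 ± 0.12 (SE, limma adjusted p = 0.0022), and *RPL7* changed by −0.56 ± 0.08 (SE, limma adjusted p = 0.000185). *RPLP2*, the gene called higher, was at 3071, 2959 and 3001 TPM in the parental, 4659, 5389 and 5063 in the Holoclone and 3254, 3169 and 3428 in the Paraclone libraries. Many of these genes have processed pseudogenes that could take up reads. The count of genes called lower was 5 in a fit of the Panc89 libraries alone and 7 without parental replicate 1 or 3.

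For 5 further lists with at least 10 genes tested limma called 0 genes. Cell cycle genes were below 0 in 37 of 38 cases (0 higher and 1 lower at an unadjusted p under 0.05), with medians of −0.06 in Holoclone and −0.84 in Paraclone cells. Of 17 genes of HLA class I and antigen processing 0 and 2 passed at an unadjusted p, of 13 mitochondrially encoded genes 0 and 0, of 15 unfolded protein response genes 1 and 1, and of 11 clustered protocadherins 1 and 1. For these the lack of calls does not show that levels were alike. The remaining lists had 1 gene lower and 0 higher of 30 for cholesterol and fatty acid synthesis, 1 higher of 28 for ATF4 targets and serine synthesis, 4 higher and 6 lower of 33 for NRF2 targets (12.1% and 18.2%), 3 higher and 1 lower of 21 for p53 targets (14.3% and 4.76%), 1 higher of 14 each for cancer-testis and heat shock genes, and 1 lower of 6 for metallothioneins. Over all genes 9.7% were called higher and 6.92% lower.

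Among markers of other cell types, the endothelial list had 4 of 10 genes tested, of which *PECAM1* and *CDH5* were called lower. Its summed level was 148 to 162 TPM in parental, 72.7 to 77.2 TPM in Holoclone and 66.8 to 94.3 TPM in Paraclone libraries. Of this sum, *EGFL7* gave a mean of 90.0 TPM in parental, 71.9 TPM in Holoclone and 68.6 TPM in Paraclone cells. *CDH5* averaged 3.78, 0.392 and 1.59 TPM and *CLDN5* 0.330, 0.318 and 2.19 TPM in the same order, while *KDR*, *TIE1*, *TEK* and *ERG* averaged at most 0.117 TPM in each group. Immune markers summed to 20.8 to 29.0 TPM in parental, 35.1 to 44.2 TPM in Holoclone and 36.7 to 66.8 TPM in Paraclone libraries, with *CD3E*, *CD2* and *MS4A1* at or near 0. Of the 3 immune markers tested, *CD68* was called higher, whereas *CD14* and *LAPTM5* were called lower. *CD14* went from a mean of 3.97 TPM to 0.191 TPM in Holoclone and 3.20 TPM in Paraclone cells, and *LAPTM5* from 9.21 TPM to 17.6 TPM and 0.365 TPM. The part of other cells in these values was not tested.

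**Figure D3:**
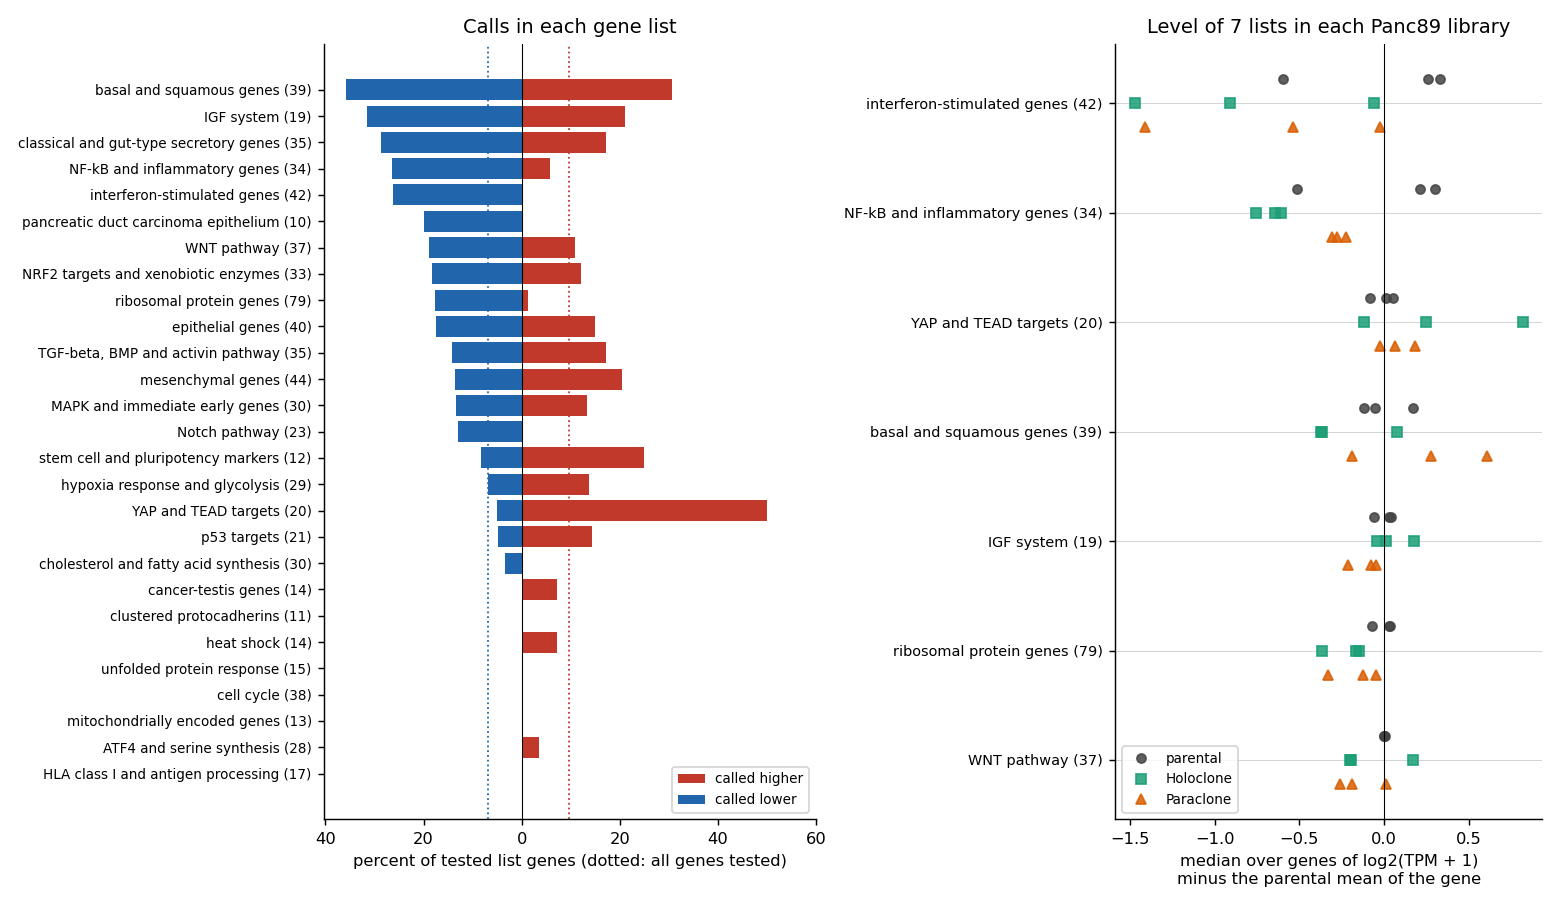
Left, percent of the tested genes of each list called higher (red, to the right) or lower (blue, to the left) in the clones by limma, with the share over all genes dotted and the number tested in brackets. Right, the level of 7 lists in each Panc89 library as the median deviation from the parental mean, in which parental replicate 2 lies at −0.60 for interferon-stimulated genes and −0.51 for NF-kB and inflammatory genes, below the other parental libraries.

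The members were spread over the genome, but not evenly. Of 13365 tested protein-coding genes with a chromosome, 7.17% were higher and 4.88% lower members. Chromosome 8 had the largest share of lower members, with 63 of 467 genes (13.5%), followed by chromosome 9 with 47 of 540 (8.70%), which also had the smallest share of higher members (2.22%). Chromosome 16 had the largest share of higher members (10.1%). Sliding windows of 50 consecutive protein-coding genes, moved by 10 genes, were ranked by the members in them, so the values in the leading windows are a description.

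The window richest in lower members lay near the end of the long arm of chromosome 8, at chr8:142657460-144314720 (GRCh38), with 20 of 50 genes lower (40%) and 0 higher. Its 50 genes had medians of −0.32, −0.46 and −0.51 in the Holoclone and −0.26, −0.40 and −0.31 in the Paraclone libraries relative to parental means, and 46 of 50 genes were below 0. The largest losses of members were in the cluster of LY6 and related surface protein genes, with −3.57 for *SLURP2*, −3.39 for *LYPD2*, −2.52 for *LYNX1* and −1.65 for *LY6E*, where *SLURP2* and *LYNX1* share a readthrough locus and reads may be split between them. Genes with other functions lay beside them, such as *EEF1D*, a translation elongation factor subunit, with −0.71 and *CYC1*, cytochrome c1, with −0.37. A second window on the same arm, at chr8:107249482-130017504, had 15 of 50 lower members, and was lower in Paraclone cells (median −0.85) than in Holoclone cells (−0.25). It holds *TNFRSF11B*, the decoy receptor osteoprotegerin, with −2.23, and *EIF3E* and *EIF3H*, subunits of a translation initiation factor, with −0.74 and −0.58.

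The window richest in higher members lay at the tip of the short arm of chromosome 11, at chr11:167784-1841680, with 19 of 50 higher (38%) and 2 lower. Medians were 0.70, 0.56 and 0.46 in the Holoclone and 0.24, 0.21 and 0.22 in the Paraclone libraries. *PKP3* and *RPLP2* lie here, beside *DEAF1*, a transcription factor, with 0.97, *SIGIRR*, an inhibitor of interleukin-1 signalling, with 0.93, and *CD151*, a tetraspanin that binds laminin receptors, with 0.64. The 2 lower members of this window were the neighbouring mucin genes *MUC5B* and *MUC5AC* (−1.10). On the short arm of chromosome 10, windows at chr10:17589032-35212958 and chr10:130088-14954432 held 14 and 13 higher members of 50, with medians of 0.24 and 0.13 in Holoclone and 0.50 and 0.49 in Paraclone cells. *ITGB1*, the common beta subunit of many integrins, changed by 0.59 and *NRP1*, a coreceptor for VEGF and semaphorins, by 0.78. In the Panc1 clones the medians of these 5 windows lay between −0.18 and 0.04.

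**Figure D4:**
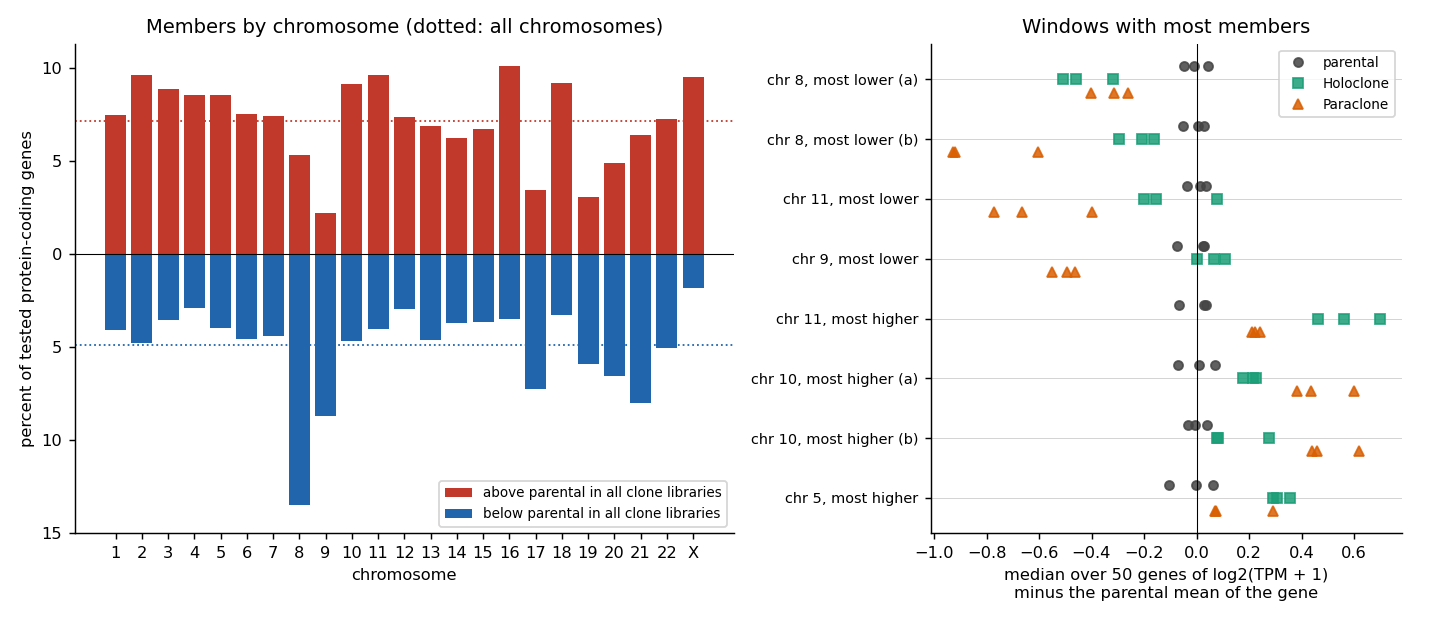
Left, percent of tested protein-coding genes on each chromosome that were higher (red, above 0) or lower (blue, below 0) in all clone libraries, with the share over all chromosomes dotted, where chromosome 8 reaches 13.5% lower. Right, the 8 windows with the largest shares of members, as the median over 50 genes of the deviation from the parental mean in each library, where the first row is the distal window of chromosome 8 with all 6 clone libraries at −0.26 or below.

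The Panc1 libraries were not used by the rule and show which of these changes also occurred when another PDAC line was cloned. In the Panc1 clones 3.79% of all genes tested were called higher and 7.92% lower than in parental Panc1. Of the 1095 members higher in the Panc89 clones, 69 (6.30%) were called higher in the Panc1 clones as well and 79 (7.21%) lower. Of the 731 lower members, 97 (13.3%) were also called lower and 36 (4.92%) higher. Thus, 166 of 1826 members were called the same way and 115 the opposite way, and the median Panc1 change was −0.01 for higher and −0.05 for lower members, compared to −0.06 over all genes. The clone change differed between the lines for 15.8% of all genes tested.

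Changes over 1 on the log2 scale in the same direction in both lines were found for 21 members, 9 higher and 12 lower. *IGFBP2* fell from a mean of 157 TPM in parental Panc1 to 16.6 TPM in Panc1 Holoclone and 0.846 TPM in Panc1 Paraclone cells, a change of −4.81 (limma adjusted p = 6.59e-11). *NPW*, which encodes the neuropeptide W, was at 42.7, 42 and 43.5 TPM in the parental, 9.59, 22.9 and 21.3 in the Holoclone and 3.41, 1.95 and 4.37 in the Paraclone libraries in Panc89, with −2.35 ± 0.25 (SE, limma adjusted p = 1.17e-05), and changed by −3.92 (limma adjusted p = 5.16e-08) in Panc1. *ALPG* and *CD70* changed in Panc1 by −3.03 (limma adjusted p = 7.76e-07) and −1.38 (limma adjusted p = 0.00376). *NPW* was chosen for this comparison after its values were seen.

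Several genes had opposite changes in the 2 lines. *IGFBP3* was at 6.37, 3.24 and 4.52 TPM in the parental, 5.63, 10.5 and 11.7 in the Holoclone and 32.2, 32.7 and 40.6 in the Paraclone libraries of Panc1, a change of 1.76 (limma adjusted p = 0.000167) that was larger in Paraclone cells, while it fell in the Panc89 clones. *TNFAIP2* changed by 1.63 (limma adjusted p = 2.62e-05) in Panc1, with both clones above parental cells. *PKP3* changed in Panc1 by −0.74 (limma adjusted p = 0.000213), at 36.4, 53.1 and 40.7 TPM in the parental, 20.5, 22.6 and 21.7 in the Holoclone and 30.3, 29.1 and 29.5 in the Paraclone libraries of Panc1, with both clones below parental cells.

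For other genes the mean over the Panc1 clones hid unequal levels. *CP* was at 4.01, 2.82 and 3.66 TPM in the parental, 0.619, 0.52 and 0.305 in the Holoclone and 63.2, 63.6 and 106 in the Paraclone libraries of Panc1, so that its mean change of 1.25 (limma adjusted p = 0.0492) came from Paraclone cells alone, with Holoclone cells below parental cells. *EGLN3*, a hydroxylase of the hypoxia response, had the same order at 0.431, 0.639 and 0.462 TPM in the parental, 0.0929, 0.12 and 0.0701 in the Holoclone and 7.69, 6.12 and 8.04 in the Paraclone libraries of Panc1. *DSG2* was at 9.08, 9.76 and 8.84 TPM in the parental, 15.3, 21.9 and 15 in the Holoclone and 0.446, 0.284 and 0.258 in the Paraclone libraries of Panc1, so that Holoclone cells were higher, as in Panc89, and the mean change of −1.06 (limma adjusted p = 1.7e-05) came from Paraclone cells. *OCLN*, at 55, 40.2 and 58.2 TPM in the parental, 51.6, 46.5 and 55.6 in the Holoclone and 6.52, 9.77 and 7.35 in the Paraclone libraries of Panc1, was likewise lower in Paraclone cells alone. *PTHLH* changed by −1.29 (limma adjusted p = 0.00454), at 10.9, 7.2 and 13.3 TPM in the parental, 1.07, 1.55 and 1.1 in the Holoclone and 11.3, 8.22 and 6.1 in the Paraclone libraries of Panc1, with the Holoclone libraries as the lowest and the Paraclone libraries overlapping with parental cells. *FZD10* and *S100A8*, among the deepest losses in Panc89, were listed at 0 in all 9 Panc1 libraries, so that Panc1 gives no comparison for them. *PECAM1* did not exceed 0.126 TPM in any of them.

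**Figure D5:**
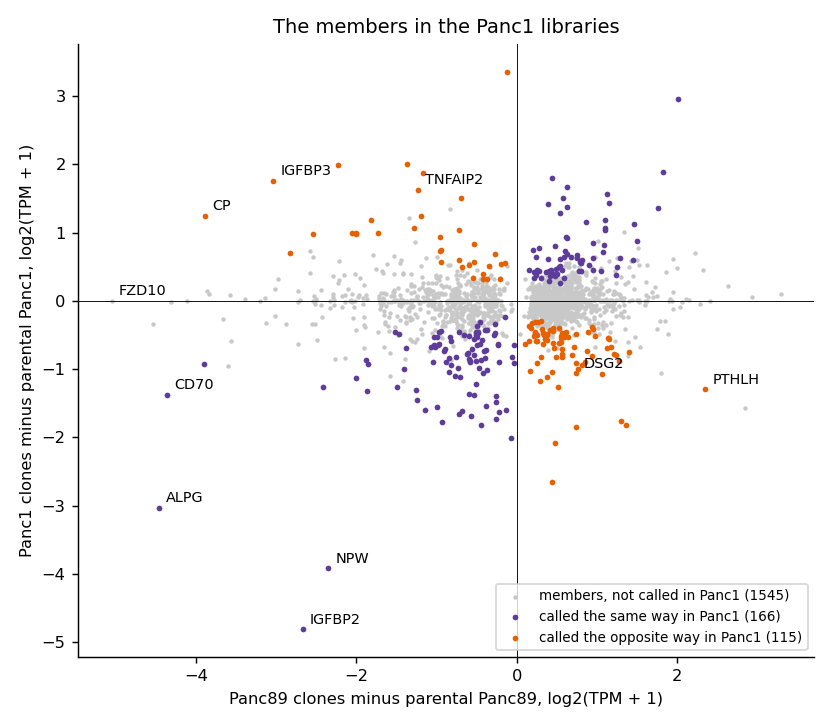
Change of the 1826 tested members in the Panc89 clones (horizontal) and in the Panc1 clones (vertical), each against the parental cells of the line, as differences of mean log2(TPM + 1). Purple points are the 166 members called the same way in Panc1, orange points the 115 called the opposite way, and most members lie near 0 on the vertical axis.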

How the data were processed

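RNA of the Panc89 and Panc1 cell variants (18 libraries) was isolated from different cell passages, and stranded mRNA libraries were sequenced paired-end. The deposited values are log2(TPM + 1) per gene symbol, which the authors made with kallisto 0.46.1 against Ensembl GRCh38 and tximport as scaled TPM. They hold no counts, so the depth and counting error are unknown, and the authors' own tests with DESeq2 could not be repeated. Samples were grouped by their labels. A linear model with 6 group means was fitted with limma 3.58.1 (R 4.3.3, eBayes with an intensity trend) to the 16093 genes that reached 1 TPM in 3 or more of the 18 libraries, and two-sided p-values were adjusted by Benjamini-Hochberg, with 0.05 as threshold. It was tested on simulated data first. The added 1 TPM makes the printed fold changes of weakly expressed genes smaller than the true ones. The p-values measure the spread between passages of parental cells and single clones, pooled for each gene over all 18 libraries. Panc1 libraries at or near 0 can thus lower the SE and p of a Panc89 change, as for *FZD10*, *S100A8*, *SFTA1P* and *PECAM1*. Under the alternatives, which include fits with a library left out, their limma adjusted p reached 5.52e-07, 0.000618, 1.2e-05 and 0.000208.

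The members, the 33 gene lists, the tests and the alternatives were chosen with earlier results of these data known. Genes were named by rule: the 10 highest and 10 lowest members called in the contrast and in each clone (at least 10 TPM in both clones or in parental cells), up to 4 called members of a list with at least 5 TPM, the 8 markers of the study, and genes at the edge of the rule. Genes of the leading lists, windows and promoters outside this rule, and *IFIT1*, *IFIT3*, *IFI6*, *IGFBP2*, *NPW* and *KRT81*, were chosen after their values were seen. Positions are from GENCODE 44 on GRCh38, which held 39773 of the 40266 symbols at 1 locus, while 338 at several loci were left without a position. Promoters of 11821 tested genes were matched by symbol in RefSeq, GRCh38.p14. Some genes are not reported here.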

Additional observations from a re-analysis of the deposited data

Results flagged for a closer look

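The change of both clones from parental cells was compared between the lines by an interaction contrast in limma, as the Panc89 change minus the Panc1 change on the log2(TPM + 1) scale. It passed an adjusted p under 0.05 for 62 of the 79 named genes, which were largely chosen for their change in Panc89, and for 15.8% of all genes tested. A positive value means a higher change in Panc89, and *FZD10* and *S100A8* were at 0 in all Panc1 libraries. *SFTA1P*, *CEACAM5*, *LETM2*, *SCEL*, *KRBOX1*, *PECAM1*, *MUC5B*, *DAPK1*, *S100A9*, *KLK6* and *MUC16* did not exceed 0.488 TPM in any of them. For all these genes the difference is close to the Panc89 change alone and compares it with no Panc1 response. Among the 10 genes named for the largest rise, the difference was 3.20 for *SFTA1P*, 2.88 for *CEACAM5*, 4.42 for *OSCAR*, 3.64 for *PTHLH*, 2.33 for *LETM2*, 1.51 for *ANTXR2*, 1.33 for *ALDH1A3*, 1.82 for *SCEL*, 1.89 for *KRBOX1* and 2.37 for *UNC13D*. Among the 10 genes named for the largest fall, the difference was −5.05 for *FZD10*, −4.19 for *H19*, −1.43 for *ALPG*, −2.99 for *CD70*, −4.29 for *PECAM1*, −4.11 for *S100A8*, −2.97 for *ATP6V1B1*, −5.13 for *CP*, −4.01 for *MUC5B* and −3.93 for *DAPK1*. Among signalling, inflammatory and interferon genes, it was −2.65 for *XAF1*, −2.46 for *CSF1*, −2.19 for *IL32*, −2.86 for *TNFAIP2*, 1.495 for *PHLDA1*, 1.56 for *FOSL1*, 1.77 for *AXL*, −1.29 for *TGFB2* and 0.47 for *YAP1*. Further values of the same kind were 0.69 for *TEAD1*, −4.79 for *IGFBP3*, 2.14 for *IGFBP2*, 1.34 for *IGFBP6*, −2.99 for *WNT11*, −1.67 for *NRARP*, −0.96 for *TGFBR2* and −1.12 for *SMAD2*. Among adhesion, matrix, basal, secretory and marker genes, it was −2.99 for *SNAI1*, −2.60 for *LOX*, −1.81 for *COL6A2*, 1.62 for *PKP3*, 1.80 for *DSG2*, 0.86 for *F11R*, 1.78 for *OCLN*, −3.17 for *S100A9* and −2.52 for *GJB6*. Further values of the same kind were −1.88 for *KLK6*, 2.42 for *CEACAM6*, −2.24 for *MUC16*, 1.25 for *ALCAM*, 1.55 for *CD68*, 3.06 for *NES*, −2.04 for *SOX2* and −1.56 for *L1CAM*. Among metabolic and ribosomal genes, it was −2.72 for *EGLN3*, −0.68 for *BNIP3*, 0.91 for *HK1*, −0.70 for *RPL7A*, −0.47 for *RPL7* and −0.65 for *RPL12*. For genes chosen after their values were seen or from other lists, it was 1.57 for *NPW* and −4.01 for *KRT81*. *IGFBP2* and *NPW* fell in both lines, and further in the Panc1 clones.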

How the results depend on the processing

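With an absolute log2 fold change over 1 as a further condition, 685 in place of 2675 genes were called in the Panc89 clones, and 49 in place of 166 members were called the same way and 25 in place of 115 the opposite way in Panc1. A fit of the Panc89 libraries alone called 989 genes higher. With single Panc89 libraries left out, the calls ranged from 1601 to 3139, those higher from 915 to 1740, those lower from 674 to 1430, members lower in all clone libraries from 753 to 1358 and members called the same way in Panc1 from 163 to 256. Calls were fewest without parental replicate 3 (1601) or 1 (1606). Lower members numbered 1358 without parental replicate 2 and 1098 without Holoclone replicate 1, where fewer libraries have to be apart by construction. The replicate number as a block (replicate block) gave 2127 calls, 1219 higher and 908 lower. Libraries of the same number deviated from their group means with correlations of −0.318 to 0.190 over 9 pairs, so the numbers were not read as pairs. Over all pairs from different Panc89 groups the range was −0.353 to 0.410. Holoclone replicate 1 with Paraclone replicate 2 had the highest value, and no fit took such shared deviations into account. Over 1185 combinations of 79 named genes and 15 alternatives, 1087 kept direction and call, 94 lost the call, 4 gained one and 0 reversed. The cause of these shifts was not tested. Depth is unknown for these values, so no limit for a gene at 0 TPM can be given.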

Other observations

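Of the genes of the hypoxia response, which HIF factors drive, and of glycolysis, 29 were tested, and 4 were called higher (13.8%) and 2 lower (6.90%), close to the 9.7% and 6.92% over all genes. *EGLN3*, a HIF target and feedback regulator, was at 13.8, 16.3 and 14.4 TPM in the parental, 8.31, 2.26 and 2.25 in the Holoclone and 3.5, 4.13 and 4.26 in the Paraclone libraries, with −1.73 ± 0.25 (SE, limma adjusted p = 0.00019). *BNIP3*, a mitophagy receptor, was at 24.2, 34.8 and 26.7 TPM in the parental, 21.8, 19.6 and 18.1 in the Holoclone and 12, 12.3 and 14.7 in the Paraclone libraries, with −0.78 ± 0.14 (SE, limma adjusted p = 0.000976), and the Paraclone libraries were the lowest. *HK1*, which opens glycolysis, rose mainly in Holoclone cells, at 25.1, 24.5 and 24.6 TPM in the parental, 60.5, 48.5 and 38.6 in the Holoclone and 32.8, 29.1 and 26.3 in the Paraclone libraries, with 0.59 ± 0.12 (SE, limma adjusted p = 0.00349). *PFKFB3*, an activator of glycolytic flux, changed by 0.54 ± 0.15 (SE, limma adjusted p = 0.0208), a call that was lost under 3 of 15 alternatives. Of the list, 3 genes were higher and 3 lower members.

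Among 12 stem cell and pluripotency markers tested, 3 were called higher (25%) and 1 lower (8.33%), compared to 9.7% and 6.92% over all genes. *ALCAM*, an adhesion molecule, was at 38.7, 32.2 and 37.6 TPM in the parental, 104, 116 and 93 in the Holoclone and 78.9, 62.6 and 67.6 in the Paraclone libraries, with 1.22 ± 0.11 (SE, limma adjusted p = 2.44e-06) and higher levels in Holoclone cells. *CD44*, the hyaluronan receptor, was at 101, 104 and 94.4 TPM in the parental, 240.1, 165 and 118 in the Holoclone and 176, 179 and 153 in the Paraclone libraries, with 0.75 ± 0.17 (SE, limma adjusted p = 0.0063). Both were above parental cells in each clone, whereas *SOX2*, the gene called lower, was at 30.7, 18.1 and 32.9 TPM in the parental, 64.3, 32.5 and 17.3 in the Holoclone and 0.252, 0.909 and 0.981 in the Paraclone libraries, with Holoclone and parental libraries overlapping.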
